A study of Bos taurus with 2 samples.

Results

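The 37 genes described here belong to the interferon response: 21 antiviral effectors such as ISG15, MX1 and the IFIT and OAS families, 3 cytosolic RNA sensors, 4 regulators including the nuclease TREX1, and STAT2 with 8 interferon regulatory factors (IRFs). They were chosen by name. A probe was taken when the gene name on the array, or the current RefSeq symbol of its accession, was on the list. No measured value entered that step, but the list was drawn up with earlier results of these data known. By this rule 35 of the 37 genes had a probe, out of 16959 genes on the array, and 31 of them were measured on both arrays, out of 12245 genes. IFI44 and IFI44L had no probe under the rule.

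Interferons are secreted when a cell senses foreign nucleic acid or bacterial products. Type I interferons bind IFNAR1 and IFNAR2, and the kinases JAK1 and TYK2 then phosphorylate STAT2, which joins IRF9 in a complex that switches on the interferon-stimulated genes. IRF3 and IRF7 act one step earlier and drive transcription of the interferon genes themselves, while interferon-gamma induces IRF1. In the udder, lipopolysaccharide of gram-negative bacteria reaches IRF3 through TLR4 and the adapter TICAM1, so the response is not limited to viral infection.

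The tissue was the mammary gland of adult Chinese Holstein cows late in lactation, collected after slaughter. The mastitis array stands for cows with clinical mastitis of gram-negative origin that had received antibiotics, and the normal array for cows without mastitis that had received none, so disease and treatment cannot be told apart. The study had 3 cows per condition, but 1 array per condition was analysed here, and although the study's methods describe hybridising each specimen separately, the sources used here do not say which cow or cows lie behind each array. The differences below could not be checked against replicates, and p-values were not computed.

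Each value was a net signal, the median brightness of a spot in the Cy3 channel less the mean of the negative control spots. Of 43653 gene probes, 70.2% were above background for mastitis and 67.0% for normal, and across probes the Spearman correlation between the net signals of both arrays was 0.95. The 75th percentile of the net signals was 210 for mastitis and 128 for normal, and each signal was divided by that of its array. A probe with equal net signals on both arrays thus has a log2 ratio, mastitis over normal, of -0.71. The median ratio over all measured genes was -0.15 on the log2 scale, and 11.4% of the genes differed at least 2-fold in either direction. Defining markers of lactating mammary tissue were bright on the normal array but at or near background on the mastitis array in part. LALBA had 2 in mastitis tissue, below background, and 57769 in normal tissue, and GLYCAM1 had 32 in mastitis tissue and 48282 in normal tissue. The 11 milk synthesis genes measured on both arrays had a median log2 ratio of -6.11, and all 11 were 2-fold or more lower in mastitis tissue.

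Of the 31 interferon genes measured on both arrays, none reached a 2-fold higher signal in mastitis tissue, TREX1 reached a 2-fold lower one, and the other 30 lay within 2-fold. Outside these 31, OAS1X was seen on the normal array alone and was at least 3.90-fold lower in mastitis tissue, and probes found later in the annotation put IFI44L 3.14-fold and IFI44 2.02-fold higher. Of all measured genes, 2.26% reached 2-fold on the high side and 9.14% on the low side. The median log2 ratio of the 31 genes was -0.15, beside -0.15 over all measured genes, with 17 of the 31 above the median of all genes. Their ratios ran between -1.57 for TREX1 and 0.64 for IFIT5. The SD across the 31 genes was 0.51, against 0.73 across all genes, and 21 of them (67.7%) had a ratio within 0.5 of zero, against 63.8% of all genes. In whole tissue, fewer cells of a type and less RNA per cell cannot be told apart, which holds for every ratio given here.

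**Figure D1:**
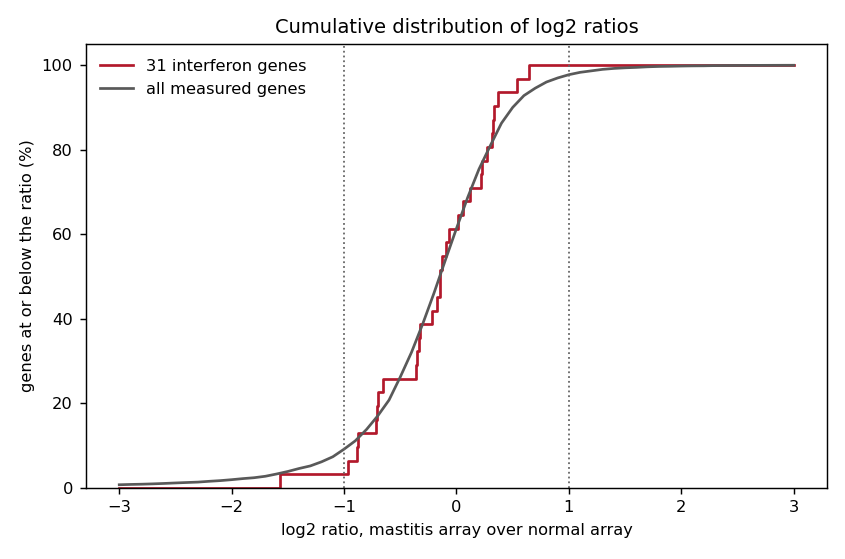
Cumulative share of genes (y axis, percent) at or below each log2 ratio of the mastitis over the normal array (x axis, drawn between -3 and 3), for the 31 interferon genes and for all 12245 measured genes. Dotted lines mark 2-fold. The curves cross near their shared median of -0.15, and to the left of the lower dotted line lies 1 interferon gene, TREX1.

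The precision of a ratio can be judged only within the arrays. Replicate spots of the same probe had a pooled SD of 0.17 in log2 ratio over 41 probes, and different probes of the same gene a pooled SD of 0.45. Of the 69 probes for these genes, 54 were measured on both arrays, 5 on the mastitis array alone, 2 on the normal array alone and 8 on neither. None was saturated. A single probe carried the value of 12 of the 31 genes, and 19 genes had several. Before scaling, 43 of the 54 probes had a higher net signal on the mastitis array, 8 a lower one and 3 an equal one. The sign of a small ratio thus rests on the scaling. Under the 6 ways of scaling that were tried, 12 genes stayed above 0 (IFIT5, OAS1Y, IFI6, IFI27, MX1, IFIH1, USP18, IRF5, RSAD2, XAF1, IRF9 and ISG15) and 4 stayed below 0 (TREX1, IRF4, IFIT3 and HERC6). The sign of the other 15 changed with the scaling or reached zero. Apart from quantile normalization, each alternative scaling moved all genes up by the same amount, so it could not bring those 12 below 0. With other processing the lowest ratio was below 0 for IFI6 (-0.55), RSAD2 (-0.31), IFIH1 (-0.15) and XAF1 (-0.15). It was also below 0 for MX1 (-0.12), IRF9 (-0.06), IFI27 (-0.03), ISG15 (-0.03) and USP18 (-0.01). IFIT5, OAS1Y and IRF5 stayed above 0 and the 4 low genes below, leaving aside the deposited table with its rows as named.

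Among the antiviral effectors, 15 of 21 genes were measured on both arrays. Their median log2 ratio was 0.01, none differed 2-fold (11.4% of all measured genes did), and 9 of the 15 lay above the median of all genes. The highest and the lowest of them came from 1 family. The IFIT proteins bind foreign RNA and stop its translation. IFIT5 had a net signal of 243 in mastitis tissue and 95 in normal tissue, a log2 ratio of 0.64 (1.56-fold, 1 probe), higher than 93.6% of all measured genes. IFIT2 had 25 in mastitis tissue and 24 in normal tissue, a ratio of -0.66. IFIT3 had 8 in mastitis tissue and 9 in normal tissue on its measured probe, a ratio of -0.88, and its other probe had 14 on the mastitis array while its spot was flagged as not found on the normal array at 10. These signals are at the edge of detection, since the lowest net signals counted as above background were 8 in mastitis tissue and 9 in normal tissue. IFIT1 was above background on neither array, at 1 in mastitis tissue and 7 in normal tissue. IFIT2 and IFIT3, the low pair, are next to each other in the RefSeq gene order of the ARS-UCD2.0 assembly.

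The OAS enzymes make oligoadenylates that switch on RNase L, which cuts RNA in infected cells. OAS1Y had 948 in mastitis tissue and 397 in normal tissue, the second highest ratio at 0.54 (1.46-fold, 1 probe). OAS1X was seen on the normal array alone, with -3 in mastitis tissue and 19 in normal tissue, which puts it at least 3.90-fold lower in mastitis tissue. OAS1Z was seen on the mastitis array alone, with 20 there against 9 on the normal array where its spot was flagged as not found, at least 1.35-fold higher. Its signals were near the limit of detection. The other OAS1Z probe had 7 in mastitis tissue and 6 in normal tissue, below background on both arrays. OAS2 was on neither array above background, at 2 in mastitis tissue and 1 in normal tissue. The 4 OAS genes are neighbours in the RefSeq order (OAS2, OAS1Y, OAS1X and OAS1Z), and OAS1X, OAS1Y and OAS1Z are close copies, so a probe of one may have bound RNA of another.

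The MX proteins are dynamin-like GTPases that trap viral nucleocapsids. MX1 had 430 and 103 on its 2 measured probes on the mastitis array, against 211 and 50 on the normal array. Both probes gave nearly the same ratio, with a mean of 0.32 and an SD of 0.01. Another MX1 probe had 6 in mastitis tissue and 7 in normal tissue, below background on both. MX2, its neighbour in the gene order, had 16 on both arrays and a ratio of -0.71.

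ISG15 is a ubiquitin-like protein that is attached to other proteins during the response and is among the most strongly interferon-inducible genes in mammals. Its 2 probes had 244 and 174 on the mastitis array, against 152 and 102 on the normal array, and its ratio was 0.01 (SD 0.06). RSAD2, or viperin, makes a nucleotide that ends viral RNA chains, and had 44 in mastitis tissue and 23 in normal tissue on its measured probe, a ratio of 0.22. Neither of these classical response genes differed 2-fold.

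IFI6 and IFI27 are small hydrophobic proteins of the same family. IFI6 had 1354 in mastitis tissue and 637 in normal tissue, a ratio of 0.37, and its other probe had 7 on the mastitis array, below background, and 12 on the normal array. The 3 probes of IFI27 disagreed: 888 in mastitis tissue against 320 in normal tissue (0.76), 968 against 604 (-0.03) and 18 against 9 (0.29), with a mean of 0.34 (SD 0.40). XAF1, which binds the apoptosis inhibitor XIAP, also split, with 363 in mastitis tissue against 246 in normal tissue (-0.15) on one probe and 58 against 27 (0.39) on the other. Its mean was 0.12 (SD 0.38). For both genes the spread between probes was larger than the mean.

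BST2, or tetherin, holds budding virus at the cell surface. It had 419 and 53 in mastitis tissue against 261 and 36 in normal tissue, a ratio of -0.09 (SD 0.09). EIF2AK2, the RNA-activated kinase PKR that halts translation, had 143 and 33 in mastitis tissue against 112 and 20 in normal tissue, a ratio of -0.18 (SD 0.26). Both were close to the median of all genes. IFI35, which pairs with NMI, had 1056 and 106 in mastitis tissue against 1038 and 106 in normal tissue, so that its net signals were nearly equal and its scaled ratio was -0.70 (SD 0.02). SAMD9, an inhibitor of poxvirus replication, had 77 and 11 in mastitis tissue against 84 and 10 in normal tissue, a ratio of -0.71 (SD 0.19). The effectors thus fell into a group near or above zero and a group of 5 genes (IFIT3, MX2, SAMD9, IFI35 and IFIT2) between -0.88 and -0.66, with no effector between that group and EIF2AK2.

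**Figure D2:**
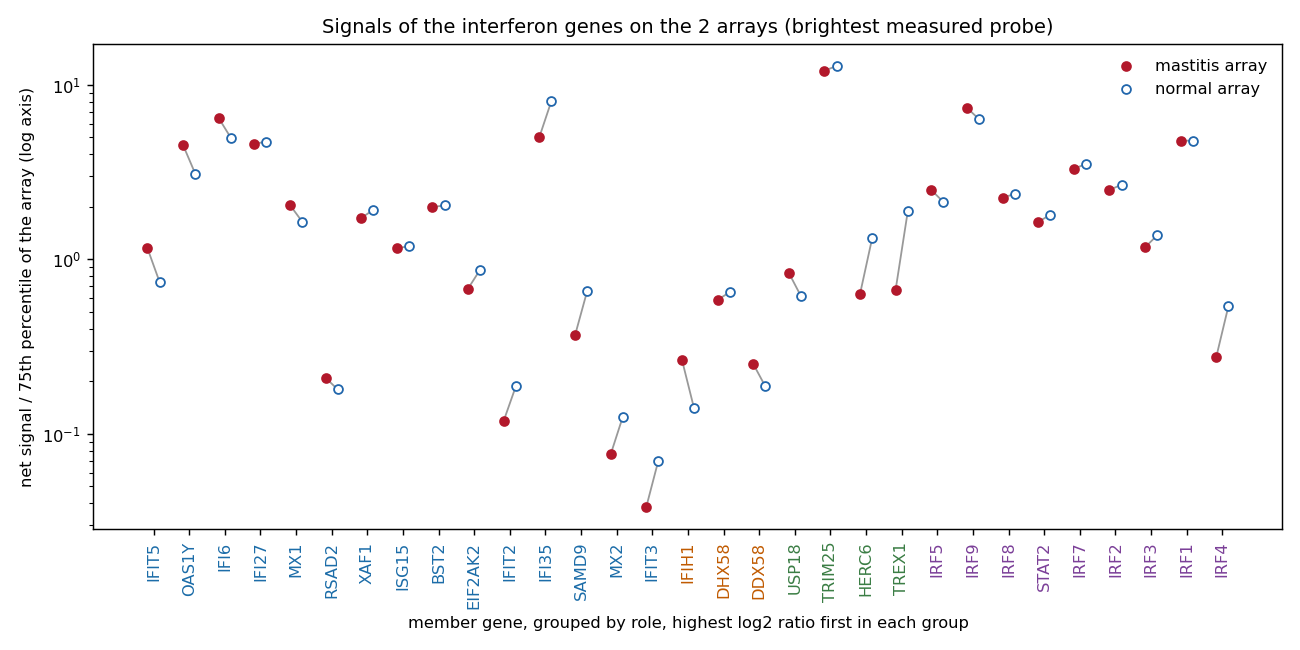
Net signal divided by the 75th percentile of its array (y axis, log axis) for the brightest measured probe of each of the 31 interferon genes (x axis, coloured by role), with the mastitis array as filled points and the normal array as open points. IFIT5, OAS1Y and IFIH1 stood higher on the mastitis array and TREX1, HERC6 and IRF4 lower. Heights of different genes cannot be compared, since probes differ in their binding.

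The RNA sensors had a median of -0.15, and none differed 2-fold, against 11.4% of all measured genes. IFIH1, or MDA5, senses long double-stranded RNA. One probe had 56 in mastitis tissue and 18 in normal tissue (0.92) and the other 16 against 12 (-0.30), so that the mean of 0.31 had an SD of 0.86. DDX58, now named RIGI, senses RNA with a triphosphate end. Its probes were also far apart, with 53 in mastitis tissue against 24 in normal tissue (0.43) and 14 against 18 (-1.08), a mean of -0.32 with an SD of 1.06. In both genes the brighter probe was higher on the mastitis array and the dimmer probe lower. DHX58, or LGP2, the relative that lacks a signalling domain, had 123 in mastitis tissue and 83 in normal tissue, a ratio of -0.15.

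Among the genes measured on both arrays, the regulators held the one past 2-fold. TREX1 is the exonuclease that degrades DNA in the cytosol and so keeps the cyclic GMP-AMP synthase pathway quiet. It had 141 and 63 in mastitis tissue against 241 and 120 in normal tissue. Both probes were lower on the mastitis array before any scaling, with log2 ratios of -1.49 and -1.64, and the mean of -1.57 (SD 0.11) was 2.96-fold lower. At this ratio TREX1 was at percentile 3.39 of all measured genes. The nearest gene to the 2-fold limit on the other side was IRF4 at -0.96.

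HERC6 is the ligase that attaches ISG15 in the mouse. Its 3 probes had 133, 48 and 17 on the mastitis array against 169, 56 and 16 on the normal array, and gave -1.06, -0.94 and -0.63, with a mean of -0.87 (SD 0.22). USP18 removes ISG15 from proteins and blocks signalling at IFNAR2. It had 176 and 30 in mastitis tissue against 79 and 17 in normal tissue, a ratio of 0.27 (SD 0.24). A pair of further enzymes of ISG15 attachment, picked after their values were seen, were near zero or above. The activating enzyme UBA7 had 239 in mastitis tissue and 152 in normal tissue (-0.06), and the conjugating enzyme UBE2L6 had 979 in mastitis tissue and 478 in normal tissue (0.31). TRIM25, the ubiquitin ligase that activates RIGI, had 2534, 101 and 15 on the mastitis array against 1642, 64 and 13 on the normal array, a ratio of -0.22 (SD 0.25).

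STAT2 and the 8 IRFs had a median of -0.15, and none differed 2-fold, against 11.4% of all measured genes. The factor that carries the type I signal was near the median of all genes: STAT2 had 345 in mastitis tissue and 230 in normal tissue (-0.13). Its partner IRF9 had 1554, 52 and 20 on the mastitis array against 814, 33 and 12 on the normal array, a ratio of 0.06 (SD 0.14).

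IRF3 and IRF7, the factors that switch on interferon genes, were also within 2-fold. IRF7, itself interferon-inducible, had 695 and 475 in mastitis tissue against 450 and 334 in normal tissue, a ratio of -0.15 (SD 0.08). IRF3, present in most resting cells, had 246 and 66 in mastitis tissue against 176 and 56 in normal tissue, a ratio of -0.35 (SD 0.17). IRF1, induced by interferon-gamma, had 1007 in mastitis tissue and 613 in normal tissue on its bright probe (0.00), and 14 on both arrays on its dim one (-0.71). IRF2, which competes with IRF1 for its sites, showed the same order, with 525 in mastitis tissue against 343 in normal tissue (-0.10) and 10 against 9 (-0.56). The gene ratios of IRF1 and IRF2 were -0.36 and -0.33.

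The IRFs of blood cell lineages differed more from each other. IRF4, needed by plasma cells and activated lymphocytes, had 58 in mastitis tissue and 69 in normal tissue on its measured probe, a ratio of -0.96 (1.95-fold lower), the lowest of the 8 IRFs. Its other probe had 9 in mastitis tissue and 3 in normal tissue, below background on the normal array, which after scaling gives no direction. IRF5, which drives inflammatory cytokines in macrophages, had 525 in mastitis tissue and 273 in normal tissue, a ratio of 0.23, the highest. IRF8, needed by monocytes and dendritic cells, had 475 in mastitis tissue and 303 in normal tissue on its bright probe, a ratio of -0.07. Markers of those lineages moved as well. The 15 measured macrophage and dendritic cell markers had a median ratio of 0.89, 6 were at least 2-fold higher and none lower, and their summed scaled signal was 117 in mastitis tissue against 63.7 in normal tissue. MARCO and XCR1 of that list were above background on neither array. The 12 measured B and plasma cell markers had a median of -0.42, with 1 at least 2-fold higher and 2 lower. Their sum was 54.8 in mastitis tissue against 66.0 in normal tissue. The shares over all measured genes were 2.26% higher and 9.14% lower. The part of these cells in the IRF ratios was not tested.

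**Figure D3:**
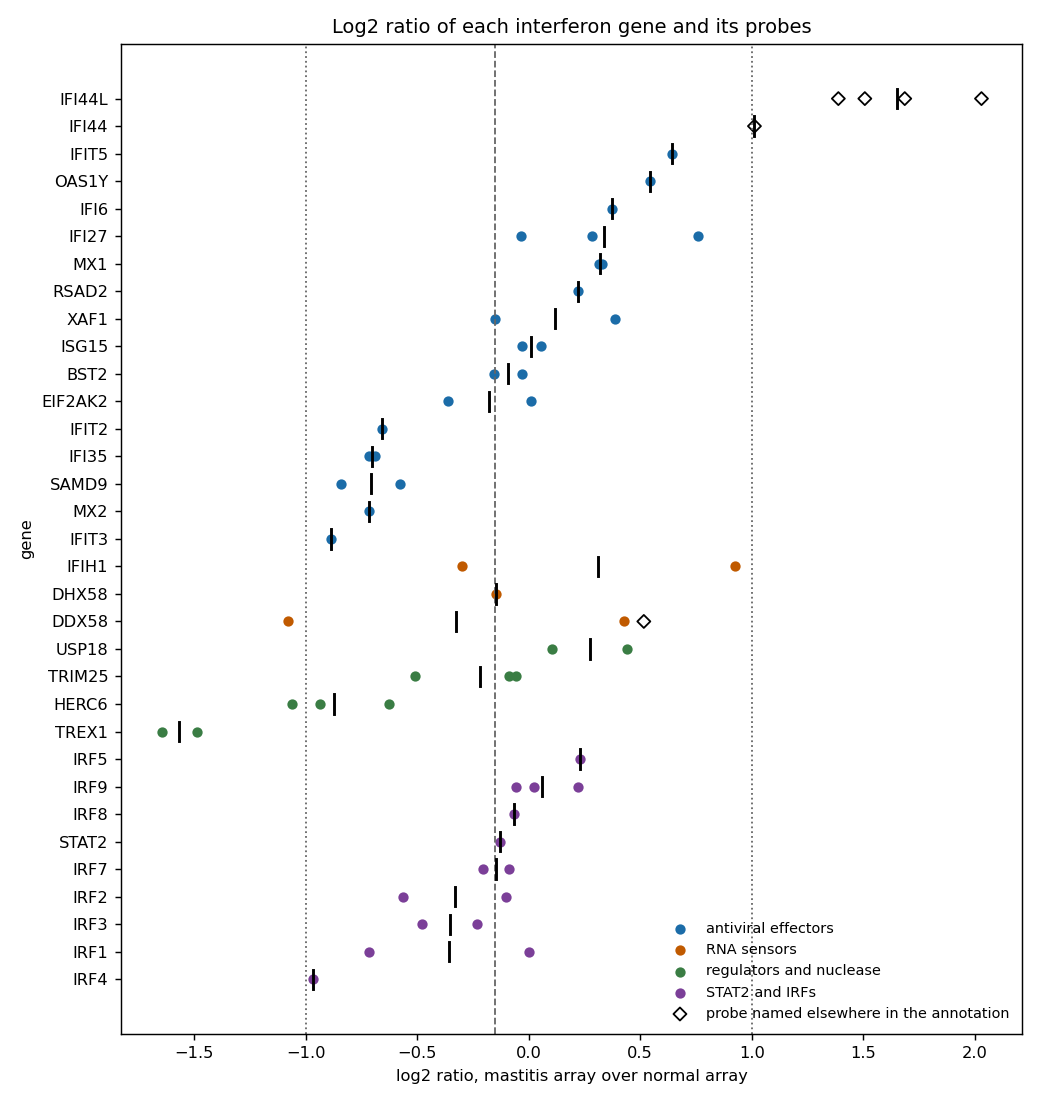
Log2 ratio of the mastitis over the normal array (x axis) of each measured probe (points, coloured by role) and each gene's mean (black bars) for the interferon genes (y axis). A dashed line marks the median ratio over all genes, -0.15, and dotted lines mark 2-fold. Open diamonds are probes named in other parts of the array's annotation, which put IFI44L at 1.65. Without them TREX1 is the one gene mean beyond a dotted line.

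IFI44 and IFI44L, neighbouring genes whose proteins are induced by interferon and have GTPase-like features, were missed by the rule because the array names them only in its longer annotation. Their probes were found, and these genes singled out, after the other values were seen. IFI44L had 4 such probes, with 1016, 462, 176 and 153 on the mastitis array against 218, 69, 41 and 29 on the normal array. Every probe was higher on the mastitis array, with log2 ratios of 1.51, 2.03, 1.39 and 1.69, and the mean of 1.65 (SD 0.28) was 3.14-fold. This was higher than 99.6% of all measured genes. IFI44 had 43 in mastitis tissue and 13 in normal tissue on a single probe, a ratio of 1.01 (2.02-fold). With a normal-exponential background correction IFI44L was 2.16-fold higher and IFI44 1.01-fold, so the call of IFI44 ended with that setting. A further DDX58 probe had 251 in mastitis tissue and 107 in normal tissue, a ratio of 0.52. With these probes added, 33 genes were measured, 2 were at least 2-fold higher (IFI44 and IFI44L) and 1 lower, and the median was -0.09. Of all genes, 2.28% were then higher and 9.14% lower.

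Ratios of dim probes ran lower on these arrays in general. Over all gene probes the median ratio was -0.18 where the lower of the net signals was under 50 (11604 probes) and -0.04 where it was 50 or more (16274 probes). The interferon probes had a median of -0.30 over 21 probes under 50 and -0.09 over 33 probes at 50 or more. Of the dim ones 38.1% were above 0, beside 38.1% of all dim gene probes. Of the bright ones 33.3% were above 0, against 46.7% of all bright gene probes. Within the 11 genes that had both a bright and a dim probe, the dim probe was the lower one in 6 and the higher one in 5. IFIT2, IFIT3 and MX2, 3 of the 5 low effectors, rested on signals under 50 alone, and SAMD9 on 1 dim probe of 2. The bright probe of SAMD9 had -0.84. HERC6 had 2 dim probes of 3, and its bright one had -1.06. Both probes of IFI35 and of TREX1 were at 50 or more on both arrays, and the brightest had -0.69 for IFI35 and -1.49 for TREX1. Where only probes with at least 50 on both arrays were kept, 25 genes remained, of which HERC6 and TREX1 were at least 2-fold lower and none higher. Of all genes kept there, 6.16% were lower and 2.37% higher.

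**Figure D4:**
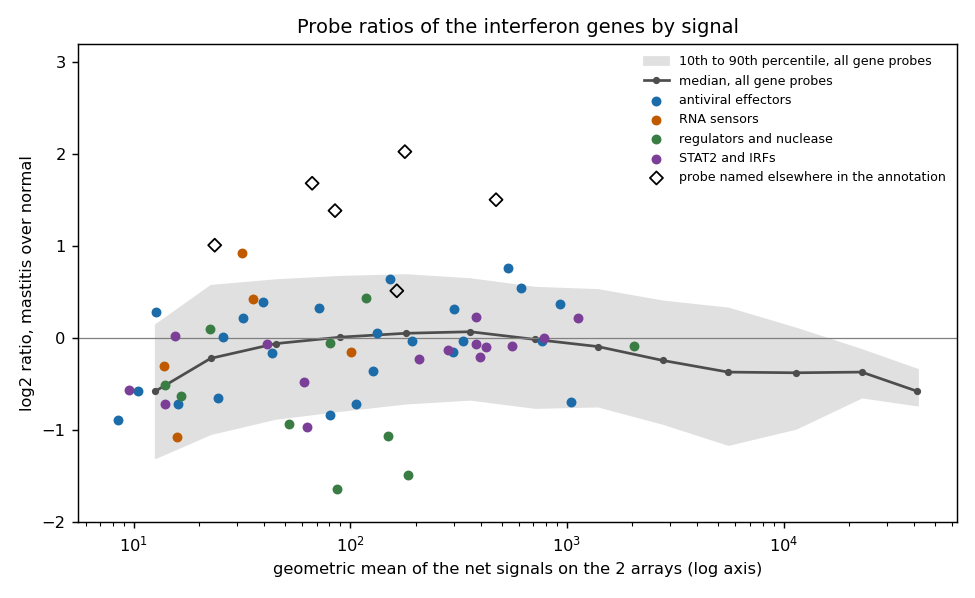
Log2 ratio of the mastitis over the normal array (y axis) of each measured interferon probe against the geometric mean of its net signals (x axis, log axis), coloured by role. The line joins the medians of all gene probes in bins of signal and the band is their 10th to 90th percentile. The line is at -0.58 in the dimmest bin, near zero in the middle and at -0.58 again in the brightest bin. Inside the band lie 45 of the 54 interferon probes. Below it are 6 probes (2 of TREX1, 2 of HERC6, 1 of IRF4 and 1 of SAMD9), and above it are 3 (2 of IFI27 and 1 of IFIH1) and the diamonds of IFI44L and IFI44.

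Of 20 interferon ligand genes listed, 8 had a probe and 1 was measured on both arrays. That gene, IFNT3, of the interferon-tau family through which the ruminant embryo signals to the uterus, had 59 in mastitis tissue and 67 in normal tissue (-0.90). IFNAC was above background on the mastitis array alone, at 12 against 5 on the normal array. After scaling its bound was at least 0.81-fold, which gives no direction. The other 6, IFNG, IFNB3, IFNW1, IFNAA, IFNAG and IFNK, were above background on neither array, with net signals of at most 7. Interferon genes share much sequence, so probes may not tell them apart. The transcripts of the ligands were thus at the edge of what the arrays could show.

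All 20 receptors, kinases and controllers of the signal had a probe and 17 were measured, with a median of -0.24. None was at least 2-fold higher and 2 were lower, against 2.26% and 9.14% of all measured genes. The chains of the interferon-gamma receptor were on opposite sides. The ligand-binding chain IFNGR1 had 647 in mastitis tissue and 247 in normal tissue on its brighter probe, and the ratio over both probes was 0.74 (SD 0.10), the highest of the list. The signalling chain IFNGR2 had 299 in mastitis tissue and 427 in normal tissue, a ratio of -1.23 (2.34-fold lower, 1 probe). STAT3, the main factor downstream of the IL6 family, was 2.05-fold lower over 5 probes that disagreed (SD 0.70), at 860 in mastitis tissue and 675 in normal tissue for the brightest. The calls of IFNGR2 and STAT3 were lost when spike-in probes set the scale or with the normal-exponential correction, and that of STAT3 also with its brightest probe (1.29-fold lower), quantile normalization, scaling by the median, a net signal of at least 50 or the deposited table moved by 1 row.

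Of 26 genes that sense nucleic acid or bacterial products upstream of IRF3 and IRF7, 23 were measured, with a median of -0.18. In this list 0 were at least 2-fold higher and 2 lower, against 2.26% and 9.14% of all measured genes. TICAM1, the adapter of TLR3 and TLR4 that leads to IRF3, was 5.33-fold lower on 1 dim probe with 8 in mastitis tissue and 26 in normal tissue, and 2.09-fold lower with the normal-exponential correction. IKBKE, a kinase of IRF3 and IRF7, had 293 in mastitis tissue and 382 in normal tissue, 2.14-fold lower. It was within 2-fold with the normal-exponential correction (1.82-fold lower) and with scaling by the median or by spike-in probes. The highest of the list, TLR3, had 118 in mastitis tissue and 52 in normal tissue on its brighter probe and a ratio of 0.37 (SD 0.14).

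Of 61 further genes listed as type I interferon-stimulated, 46 were measured. The median ratio of these 46 was -0.02, 29 of them lay above the median of all genes, 1 was at least 2-fold higher and 4 lower. Among all measured genes, 2.26% were higher and 9.14% lower, so these counts are near the share of all genes. HERC5, the ligase that attaches ISG15 in human cells and a relative of HERC6, was the high one, with 95 in mastitis tissue and 27 in normal tissue (1.10, 2.14-fold, 1 probe). It lost the call with the normal-exponential correction, at 0.42. The lowest was BATF2, a transcription factor of macrophage activation, with 283 in mastitis tissue and 1170 in normal tissue (6.78-fold lower, 1 probe, and 3.70-fold when dim probes were kept). APOBEC3Z1, of a family of antiviral cytidine deaminases, was above background on the normal array alone, at 4 in mastitis tissue and 12 in normal tissue, at least 2.46-fold lower. ISG20, an exonuclease of viral RNA, was 2.67-fold lower (SD 0.13 in log2 ratio) with 38 in mastitis tissue and 58 in normal tissue on its brighter probe, and within 2-fold (1.72-fold lower) with the normal-exponential correction. NMI, the partner of IFI35, was 2.03-fold lower over 3 probes (SD 0.14) with 1250 in mastitis tissue and 1393 in normal tissue on the brightest, and so both partners were on the low side. The call of NMI was lost with the normal-exponential correction (1.72-fold lower), with quantile normalization, with scaling by the median or by spike-in probes, with the brightest probe and with accession names alone. IFITM5 is a bone protein of the IFITM family and not an established interferon-stimulated gene, although the list counts it. It was 2.46-fold lower over 2 probes that disagreed (SD 1.48). The brighter had 356 in mastitis tissue and 1102 in normal tissue, and alone was 5.08-fold lower.

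The genes induced mainly by interferon-gamma had the lowest median of these other pathway lists with several measured genes, -0.37 over 21 genes of 26 listed. None was at least 2-fold higher and 4 were lower, against 2.26% and 9.14% of all measured genes. CXCL11, which attracts T cells through CXCR3, was 9.38-fold lower over 2 probes (SD 0.10), with 9 in mastitis tissue and 49 in normal tissue on the brighter. The signal of 9 is near the limit of detection, and with the normal-exponential correction the gene was 2.28-fold lower. PSMB9, a catalytic subunit of the immunoproteasome, was 8.39-fold lower over 2 probes (SD 0.20), with 1228 in mastitis tissue and 6924 in normal tissue, and 3.63-fold lower when dim probes were kept. WARS1, the tryptophanyl-tRNA synthetase, was 2.76-fold lower over 5 probes (SD 0.25), with 514 in mastitis tissue and 834 in normal tissue on the brightest. CXCL9, a second ligand of CXCR3, had 36 in mastitis tissue and 51 in normal tissue (-1.22, 1 probe), and was within 2-fold with the normal-exponential correction (1.64-fold lower) and with spike-in scaling (1.97-fold lower). The highest of the list was CYBB, the catalytic subunit of the phagocyte oxidase, with 367 in mastitis tissue and 124 in normal tissue (0.71, SD 0.20).

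Cell type markers moved between the arrays beside these genes. For their counts, the shares over all measured genes were 2.26% at least 2-fold higher and 9.14% lower. T and NK cells are the main source of interferon-gamma, and their markers had a median ratio of 0.03 over 14 genes, none 2-fold apart, and a summed scaled signal of 18.2 in mastitis tissue and 16.9 in normal tissue. Neutrophil markers had a median of -1.38 over 12 genes, 8 of them at least 2-fold lower and none higher, with a sum of 141 in mastitis tissue and 320 in normal tissue. LTF, also a milk protein, made up 125 in mastitis tissue and 278 in normal tissue of these sums, and the other 11 genes summed to 16.9 in mastitis tissue and 42.5 in normal tissue. CXCR2 and MPO were above background on neither array. Luminal epithelial markers had a median of 0.07 over 13 genes, 7 of them above 0 and 2 at least 2-fold lower. Their sum was 104 in mastitis tissue and 155 in normal tissue. Of these sums the 2 lower genes made up 8.93 and 41.5 (ELF5) and 0.56 and 11.4 (MUC1). The milk synthesis genes had a sum of 249 in mastitis tissue against 3125 in normal tissue (124 against 2848 without LTF). The part of any of these cells in the interferon gene ratios was not tested.

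**Figure D5:**
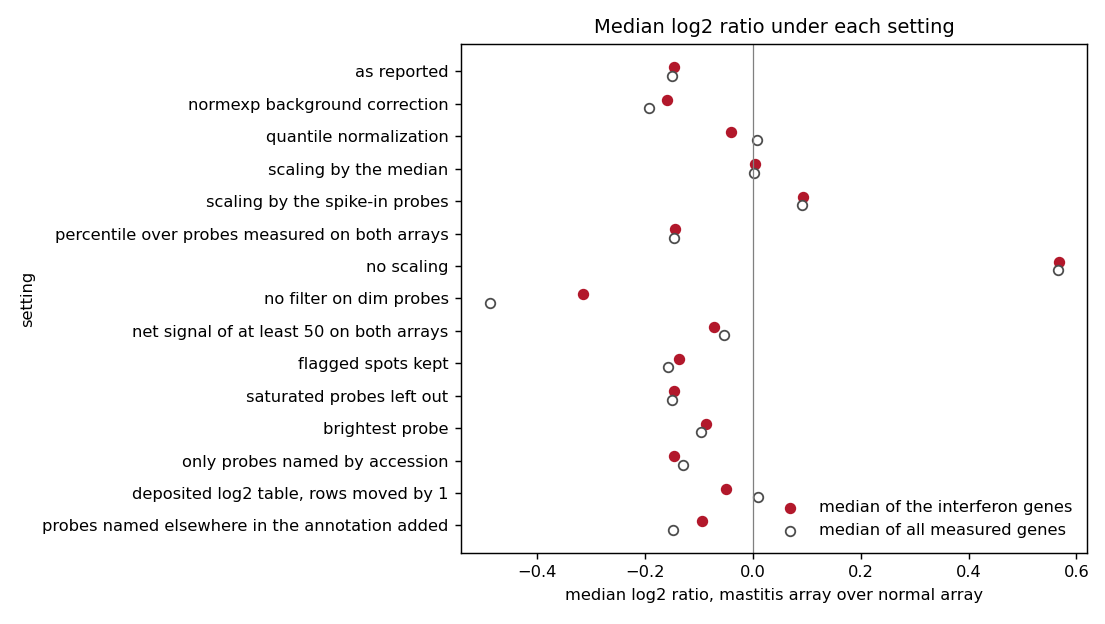
Median log2 ratio of the mastitis over the normal array (x axis) of the interferon genes (filled points) and of all measured genes (open points) under each way of processing (y axis). Without scaling the medians were 0.57 for the interferon genes and 0.56 for all genes, and the widest gap was without a filter on dim probes, at -0.32 for the interferon genes and -0.49 for all genes. Other fold thresholds and the deposited table with its rows as named are not drawn.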

How the data were processed

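Net signals of 1 mastitis array and 1 normal array were compared. The labels name Agilent Feature Extraction, the study's methods an Affymetrix chip, and the file headers an Agilent bovine array read with GenePix Pro, whose layout the files have. The RNA kit is miRNeasy in the labels and Trizol in the methods. The arrays share a slide and a scan. The authors deposited for each of 45220 spots the Cy3 intensity less the mean of the negative controls, without scaling, and the percent of saturated pixels. No source used here gives the method of the authors' deposited log2 table. Its columns had medians of 4.34 (mastitis) and 4.29 (normal), and each row matched the scanner signal of the probe after it (Spearman 1.00) better than its own (0.10), so it served as an alternative.

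From these files, control spots were dropped, replicate spots averaged and saturated spots retained. A probe was measured when its net signal exceeded the mean of 153 negative controls by 2.6 SD (7.10 on the mastitis array, 8.74 on the normal array) and its spot was not flagged as not found. Net signals were then divided by the 75th percentile of their array. A gene's value was the mean log2 ratio, mastitis over normal, of its probes measured on both arrays, and at least 2-fold was the threshold of the study. For a gene measured on 1 array alone the fold is a bound, its bright signal over whichever was higher, the dim probe's own signal or the lowest signal above background on the dim array. The planned processed signal of Feature Extraction was replaced by the GenePix net signal. Of the gene probes, 26743 were named through their accession, 5977 by symbol and 141 by synonym in a RefSeq table of ARS-UCD2.0, and 9136 had no gene.

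With 1 array per condition there was no test and no p-value. Every interferon gene was named, and in the other pathway lists the genes at least 2-fold apart with the highest and the lowest. Cell type lists were given as counts, medians and sums. The genes and lists were chosen with earlier results of these data known. The steps were tested on simulated data. Python 3.11.15, numpy 2.4.6, pandas 2.3.3, scipy 1.17.1 and, for the normal-exponential correction with an offset of 50, limma 3.58.1 in R 4.3.3 were used. The alternatives were 4 other scalings and quantile normalization, other filters and thresholds, the brightest probe, accession names, the deposited table and, added after seeing the data, probes named elsewhere in the annotation.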

Additional observations from a re-analysis of the deposited data

How the results depend on the processing

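No paired analysis was possible because each condition has 1 array, and no library could be left out. TREX1 was at least 2-fold lower under every alternative except no scaling and the deposited table with its rows as named, where it had a log2 ratio of 0.20. At 2.96-fold lower it was not called at the 3-fold threshold. Calls were at 2-fold unless another threshold is named. The count of interferon genes called higher was 0 except without scaling (6 of 31), at 1.5-fold (1 of 31) and with the probes named elsewhere (2 of 33). Of all genes, 20%, 7.66% and 2.28% were higher in these settings. The count called lower was 1 except in the following settings, each given with the share of all genes. It was 0 without scaling (2.64%) and 4 of 35 without a filter on dim probes (29.7%). At a net signal of at least 50 it was 2 of 25 (6.16%), and with the brightest probe 2 (9.34%). At 1.5-fold it was 8 (21.5%), at 3-fold 0 (3.30%) and in the deposited rows as named 5 (11.5%). The median of the interferon genes was 0.57 without scaling, where the median of all genes was 0.56. Under the other alternatives it ran from -0.32 without a filter on dim probes to 0.09 with spike-in scaling. The medians of all genes in these settings were -0.49 and 0.09. In the deposited rows as named, which are displaced by 1 probe, STAT3 had 0.49, TICAM1 0.19, HERC5 -0.070, NMI 0.57, CXCL9 0.54 and WARS1 0.022, each opposite in sign to a reported ratio of at least 2-fold. Genes within 2-fold changed sign there too, among them IRF5 (-3.39), TLR3 (-3.67) and IFNT3 (0.43). Without scaling, the lower calls of IFNGR2, STAT3, IKBKE, IFITM5, ISG20, NMI, CXCL9 and WARS1 were lost. Those of TICAM1, BATF2, CXCL11 and PSMB9 remained.

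The scaling moved the split over all genes: 277 were higher and 1119 lower as reported, 436 and 752 with quantile normalization, 556 and 723 with spike-in scaling, 2449 and 323 without scaling, and 95 and 398 with the normal-exponential correction. Without a filter on dim probes 221 were higher and 5039 lower. With 1 array per condition the spread between cows is unknown, and ratios of probes near background are the least precise.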
